A study of Homo sapiens with 24 samples.

Results

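The genes examined here encode mitochondrial ribosomal proteins. They were taken as every symbol that consists of MRPL or MRPS, a number and, in some, a letter A to C, which gave 78 genes, 49 named for the large subunit (MRPL) and 29 for the small subunit (MRPS). The tables of the depletion and overexpression experiments listed all 78, out of 60651 and 23792 genes. The tables of the sorted Hs578T and HCC70 cells listed 76, out of 19283 and 18248 genes, because MRPL57 and MRPL58 stand there under older names and were not picked up by the rule.

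RNA-Seq was performed on 24 libraries of 3 triple-negative breast cancer (TNBC) cell lines, with 3 libraries in each of 8 groups. Wild-type Hs578T and wild-type HCC70 cells were sorted into BCSCs, which were CD24-CD44+ and ALDH+, and non-BCSCs, which lacked both markers. MDA-MB-231 cells carried a lentiviral CRISPR construct with a control sgRNA (sgCtrl) or with KIF20A sgRNA #1 (KIF20A sg1, labelled a KIF20A knockdown), both under puromycin selection, or an empty vector (EV) or a vector labelled KIF20A overexpression (labelled KIF20A OE, called labelled OE libraries below). KIF20A is a kinesin of late mitosis. The titles number the 3 KIF20A sg1 libraries SG1 to SG3, while the table names them as 3 repeats of SG1, and they were taken as replicates of sgRNA #1. No clone was named for any line, and nothing in the labels says that the triplicates came from separate sorts or transductions, so the p-values measure the spread between these libraries.

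Mitochondrial ribosomes translate the few mRNAs that mitochondrial DNA encodes, all of which specify subunits of OXPHOS complexes I, III, IV and V. Their ribosomal RNAs are also made in the organelle, while their proteins are encoded in the nucleus, made on cytosolic ribosomes and imported. Some of these proteins descend from bacterial ribosomal proteins and others arose in mitochondria. Names do not always match position, since structures place MRPS30 and MRPS18A in the large subunit and MRPS36 acts as a subunit of the 2-oxoglutarate dehydrogenase complex.

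Some libraries differed from their labels or from their group. In the libraries labelled KIF20A OE, KIF20A was at 1348, 269 and 896 CPM (reads scaled to the library total) against 101.1, 143 and 124 CPM with EV, but CD44, abundant in MDA-MB-231 cells, was at 0.125 to 1.23 CPM against 523 to 788, and FN1 was at 24.9 to 28.6 against 1204 to 2010 CPM. This holds for all 3 libraries, so no comparison without them could be made, and every value from them below describes these libraries and not a condition. In the depletion experiment, whose values are reads divided by 1 factor per library (normalised reads, close to CPM), KIF20A was at 153, 173 and 156 with sgCtrl and at 122, 145 and 91.1 with KIF20A sg1. In sorted cells, KIF20A was at 214 to 219 TPM (reads corrected for transcript length and scaled to the library total) in Hs578T non-BCSCs and 271 to 323 in BCSCs, and at 68.7 to 74.0 and 123 to 129 TPM in HCC70. ALDH1A3 was at 280 to 296 and 701 to 710 TPM in Hs578T, and at 84.6 to 91.8 and 90.6 to 105 TPM, overlapping, in HCC70. ALDH1A1 was at 327 to 337 and 357 to 370 TPM in HCC70, without overlap. CD24 was at 78.4 to 92.4 and 78.5 to 87.0 TPM in Hs578T, overlapping, and at 828 to 912 and 667 to 725 TPM in HCC70, without overlap. CD44 overlapped in both lines, at 550 to 569 and 566 to 591 TPM in Hs578T and 98.7 to 106 and 95.5 to 118 TPM in HCC70. Hs578T and HCC70 differed in cell line, table and labelled batch alike, so a difference between these lines cannot be told apart from one between batches.

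The 78 genes lie on 21 chromosomes. In the GENCODE annotation of GRCh38, 18 share exon bases with another gene on the same strand, 30 share them with a gene on the opposite strand, and 36 have annotated pseudogene copies, 79 in all. The strand setting used in counting was not given in the sources used here, so reads of such genes and of their partners or copies may have been exchanged.

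Promoter sequences are shown for 5 members whose values are the largest or the most contrasting below. MRPS18A and MRPS18B had the largest positive differences in HCC70 BCSCs, MRPS31 had the largest non-overlapping difference in Hs578T BCSCs and the opposite direction in HCC70, and MRPS21 and MRPS10 had the largest rise and fall in the labelled OE libraries. Each is the 250 bases before the RefSeq start of the gene in GRCh38.p14, written 5′ to 3′ on the strand of the gene. None overlaps an annotated exon. They lie at chr6:43687792-43688041 (minus strand, MRPS18A), chr6:30617590-30617839 (plus strand, MRPS18B), chr13:40771191-40771440 (minus strand, MRPS31), chr1:150293611-150293860 (plus strand, MRPS21) and chr6:42217862-42218111 (minus strand, MRPS10). Capitals mark matches on either strand to CCGGAAG (the core bound by ETS factors), GCGCATGC (NRF1) or CCAAT (NFY).
MRPS18A: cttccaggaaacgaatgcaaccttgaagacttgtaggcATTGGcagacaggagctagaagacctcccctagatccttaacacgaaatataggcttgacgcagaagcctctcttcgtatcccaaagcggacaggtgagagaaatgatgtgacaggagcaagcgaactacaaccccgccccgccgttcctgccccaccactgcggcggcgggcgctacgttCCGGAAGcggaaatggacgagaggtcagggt
MRPS18B: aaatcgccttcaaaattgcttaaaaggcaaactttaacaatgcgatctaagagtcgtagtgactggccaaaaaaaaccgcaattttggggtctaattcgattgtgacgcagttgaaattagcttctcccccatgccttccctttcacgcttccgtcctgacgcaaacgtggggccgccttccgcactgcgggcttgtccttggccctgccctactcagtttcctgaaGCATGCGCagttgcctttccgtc
MRPS31: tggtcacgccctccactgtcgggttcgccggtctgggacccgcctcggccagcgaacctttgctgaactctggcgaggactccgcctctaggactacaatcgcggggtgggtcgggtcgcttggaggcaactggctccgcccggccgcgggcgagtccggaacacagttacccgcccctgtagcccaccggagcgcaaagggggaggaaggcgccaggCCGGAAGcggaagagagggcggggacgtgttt
MRPS21: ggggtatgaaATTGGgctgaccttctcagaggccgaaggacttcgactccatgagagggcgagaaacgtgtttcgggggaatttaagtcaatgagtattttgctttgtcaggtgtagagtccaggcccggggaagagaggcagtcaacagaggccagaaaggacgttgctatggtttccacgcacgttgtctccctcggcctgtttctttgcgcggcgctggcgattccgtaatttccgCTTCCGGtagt
MRPS10: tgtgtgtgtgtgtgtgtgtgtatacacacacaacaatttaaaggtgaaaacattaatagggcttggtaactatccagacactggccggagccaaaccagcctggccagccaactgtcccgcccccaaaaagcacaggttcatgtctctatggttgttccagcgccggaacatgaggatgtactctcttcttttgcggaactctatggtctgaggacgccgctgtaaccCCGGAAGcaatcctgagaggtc
The ETS core was found in 4 of the 5 windows. It began 31 bases before the start in MRPS18A, 32 in MRPS31 and 22 in MRPS10, and lay 11 bases before it on the other strand in MRPS21. The window of MRPS18B held the NRF1 motif instead, 23 bases before the start on the other strand. No matches overlapped each other.

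Over the 69 members with a RefSeq window of 300 bases, 250 before and 50 from the start on, the ETS core was present in 30 members (43.5%), against 12.2% of 27305 genes. The motif AAGATGGC of YY1 was present in 21 (30.4%), against 3.5% of all genes, and in 16 of these 21 it reached past the start. Of 64 OXPHOS genes with a window, 32.8% held the ETS core and 18.8% the YY1 motif. NRF1, a regulator of nuclear genes for the respiratory chain, had its motif in 6 members (8.7%), against 3.7% of all genes and 21.9% of 64 OXPHOS genes with a window. Large and small subunit members had close shares, with the ETS core in 42.9% and 44.4% and the YY1 motif in 31.0% and 29.6%. CCAAT was found in 33.3% of members and 39.7% of all genes, the E-box CACGTG in 13.0% and 8.8%, and TATAAA in 4.3% and 14.0%. Both strands were searched, and a match is a description of letters, not of binding.

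Mitochondrial ribosomal protein genes were expressed throughout the sorted cells, with levels that spanned more than an order of magnitude. In Hs578T, the 76 members ranged from 16.3 to 404 TPM over the 6 libraries with a median of 65.9, and 22 members were above 100. In HCC70 they ranged from 11.5 to 344 TPM with a median of 50.9, and 20 were above 100. MRPL51 was the highest member in both lines. It was followed by MRPL33 (271 TPM) and MRPL20 (207 TPM) in Hs578T, and by MRPS24 (259 TPM) and MRPL3 (253 TPM) in HCC70. The lowest members were MRPS18B (16.3 TPM), MRPS25 (20.5 TPM) and MRPS2 (21.6 TPM) in Hs578T and MRPL22 (11.5 TPM), MRPL54 (12.7 TPM) and MRPS2 (14.7 TPM) in HCC70. Median levels of large and small subunit members were 61.3 and 69.6 TPM in Hs578T and 46.2 and 58.4 TPM in HCC70.

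**Figure D1:**
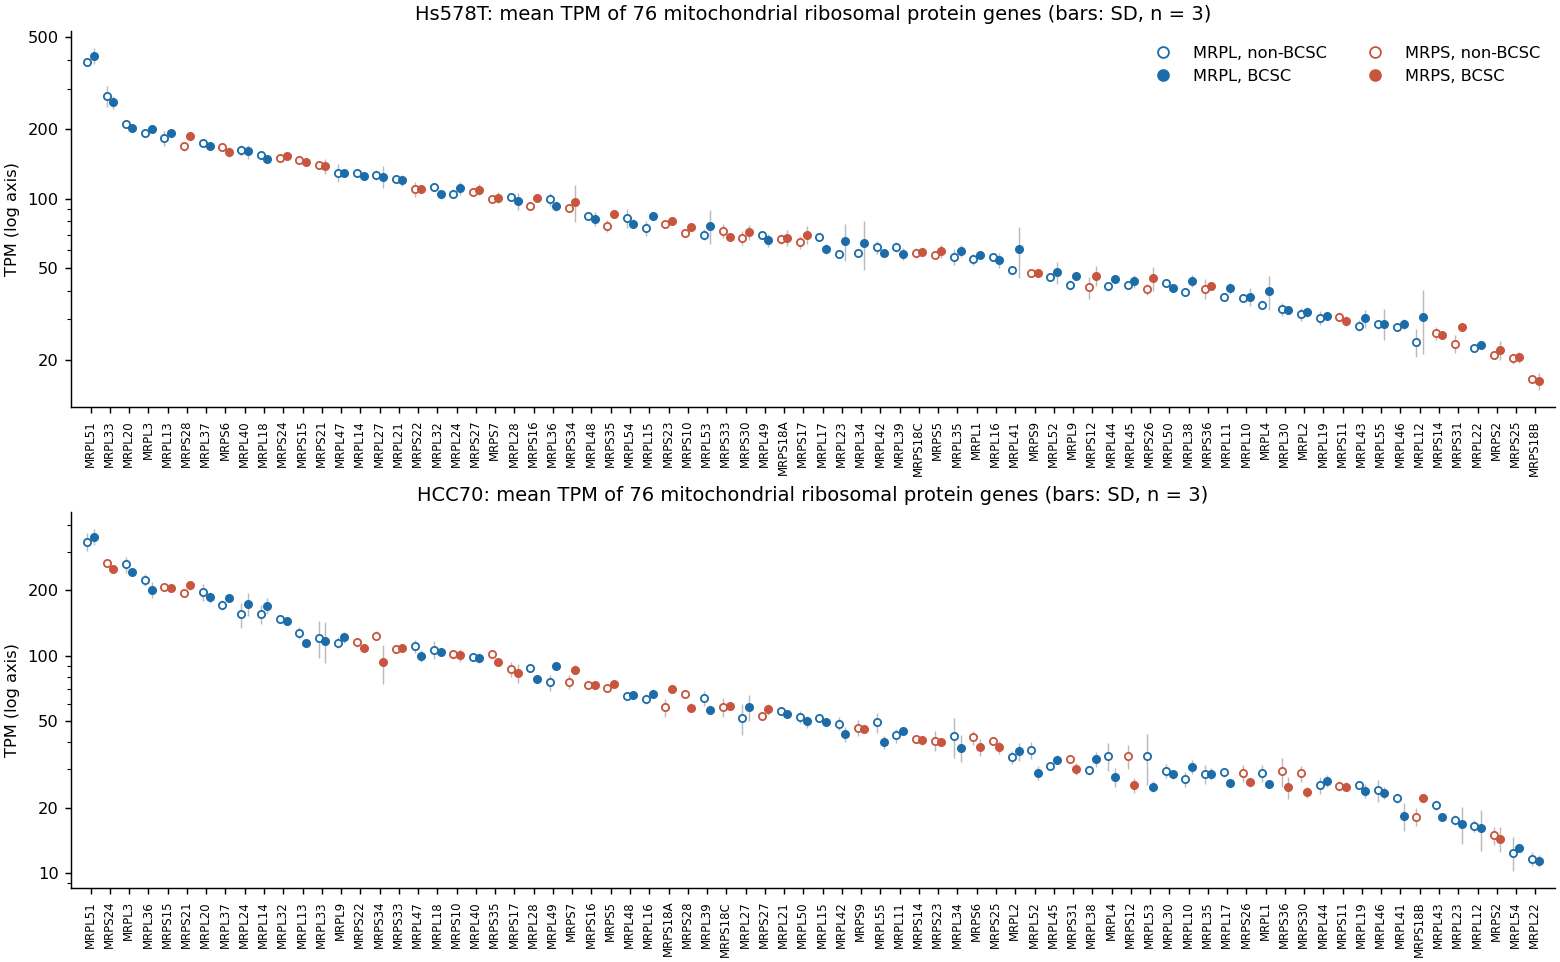
Mean TPM of the 76 members in sorted Hs578T (top) and HCC70 cells (bottom) on a log axis, ordered by level, with non-BCSCs as open and BCSCs as filled points, large subunit members in blue, small subunit members in red, and bars for SD (n = 3). Within a line the open and filled points of a member lie close together compared with the range of 16.3 to 404 TPM in Hs578T and 11.5 to 344 TPM in HCC70.

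Levels were also set side by side between the lines, although the 2 tables were normalized separately and short noncoding RNAs took unequal shares of them (RMRP at 48890 to 108800 TPM and RPPH1 at 25580 to 80530 TPM). All 6 HCC70 libraries were above all 6 Hs578T libraries for 18 members and below them for 39, where 42.8% and 32.9% of 11668 genes did so. In non-BCSCs, the median log2 ratio of HCC70 to Hs578T was -0.24 for members and 0.13 for all genes, and the Spearman correlation of levels across the 76 members was 0.776, a description in which members share libraries. MRPL54 was at 73.3, 86.5 and 88.0 TPM in Hs578T non-BCSCs but at 9.88, 13.9 and 13.5 TPM in HCC70. MRPS6 was at 168, 174 and 161 against 44.6, 38.6 and 43.1 TPM. In the opposite direction, MRPL9 was at 44.6, 42.6 and 40.0 in Hs578T and at 122, 115 and 108 TPM in HCC70, and MRPL36 at 97.0, 107 and 94.7 against 217, 216 and 240 TPM. For these members, named after their values were seen, the lines did not overlap. Their differences between lines were several times larger than those between BCSCs and non-BCSCs of the same line. Of the 76 members, 19 overlapped between lines. For some the difference between lines was the smaller one, such as MRPL4 (log2 ratio -0.01, against -0.31 between HCC70 fractions) and MRPS12 (-0.27 against -0.42).

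In Hs578T, BCSCs and non-BCSCs differed by small amounts in mitochondrial ribosomal protein mRNA. None of the 76 members passed limma at an adjusted p under 0.05, where 7.15% of 13324 genes did. At an unadjusted p under 0.05, 6 members were higher and 1 was lower (8.98% and 13.5% of all genes). BCSC values did not overlap those of non-BCSCs for 9 members on the higher side and 4 on the lower (12.0% and 17.0% of all genes). The median log2 fold change was 0.03, with 47 members above 0, against -0.01 over all genes, and 73 of the 76 members were within 0.2 of 0. In this bulk measurement fewer cells of a type and less RNA per cell cannot be told apart.

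Of the 9 members on the higher side, 4 were small subunit members, as are 29 of the 76 members. MRPS31, a mitochondria-specific protein, was at 24.7, 24.9 and 21.2 TPM in non-BCSCs and 27.4, 27.8 and 28.7 TPM in BCSCs, which did not overlap. Its log2 fold change was 0.24 (SE 0.066, limma adjusted p = 0.077). MRPS28, which corresponds to bacterial S1 in part, was at 173, 173 and 159 against 188, 189 and 187 TPM (0.16, limma adjusted p = 0.091). MRPS35 was at 81.6, 74.9 and 72.9 against 87.3, 85.2 and 86.1 TPM (0.17, limma adjusted p = 0.093). All 3 were higher in every BCSC library. Rescaled by the median of ratios, they passed, with limma adjusted p of 0.032, 0.026 and 0.032, together with MRPS16 (limma adjusted p = 0.049). These 4 calls among 76 members, all in the small subunit, compare with 4.65% of genes called higher on that scale. The share of members was thus close to that of all genes.

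Among large subunit members, MRPL15, a homologue of a bacterial core protein, was at 80.0, 74.5 and 68.8 TPM in non-BCSCs and 86.1, 85.7 and 80.5 TPM in BCSCs (0.18, limma adjusted p = 0.14). MRPL38 was at 37.8, 39.2 and 40.9 against 42.9, 46.9 and 42.2 TPM (0.16, limma adjusted p = 0.14). On the lower side, MRPL17 was at 69.8, 67.7 and 67.5 in non-BCSCs and 63.8, 57.5 and 61.0 TPM in BCSCs (-0.17, SE 0.050, limma adjusted p = 0.091). MRPL50, MRPL20 and MRPL18 were also lower in every BCSC library, by log2 fold changes of -0.08, -0.06 and -0.05. MRPL12, the stalk protein that also binds mitochondrial RNA polymerase, had the largest value of all, 0.31, but its groups overlapped, with 20.8, 23.6 and 27.4 against 23.8, 41.4 and 26.8 TPM. A single BCSC library, replicate 2, held the high value.

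In HCC70, most members were slightly lower in BCSCs, and again none of 76 passed limma, where 2.83% of 13218 genes did. At an unadjusted p under 0.05, 5 members were higher and 14 lower (16.0% and 7.74% of all genes). Groups did not overlap for 5 members on the higher side and 18 on the lower (20.9% and 10.1% of all genes). The median log2 fold change was -0.04, with 51 members below 0, against 0.02 over all genes. The spread was wider than in Hs578T, from -0.43 to 0.29.

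MRPS12, a homologue of the bacterial decoding protein S12, was at 39.5, 32.3 and 31.7 TPM in HCC70 non-BCSCs and at 26.0, 27.1 and 23.2 TPM in BCSCs. Its log2 fold change was -0.42 (SE 0.097, limma adjusted p = 0.061), and it passed only where genes with a mean under 5 TPM were left out (limma adjusted p = 0.043). MRPS34 was at 129, 118 and 124 against 95.6, 111 and 72.9 TPM (-0.43, limma adjusted p = 0.12). All 3 BCSC libraries lay below the non-BCSCs for both genes. MRPL53 was at 44.9, 29.8 and 28.8 against 24.0, 24.3 and 26.7 TPM (-0.42, limma adjusted p = 0.15), with the first non-BCSC library far above the other 5. MRPL52 was at 40.5, 35.3 and 34.7 against 30.6, 29.7 and 26.5 TPM (-0.34, limma adjusted p = 0.067), and MRPL4 at 40.3, 32.1 and 31.3 against 26.4, 30.8 and 25.6 TPM (-0.31, limma adjusted p = 0.14). MRPS30, a large subunit protein by structure, was at 31.0, 26.3 and 29.0 against 23.1, 22.5 and 24.97 TPM (-0.28, limma adjusted p = 0.087).

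On the higher side stood a pair of MRPS18 paralogs, which take different places in the ribosome. MRPS18A, found in the large subunit, was at 51.5, 59.7 and 62.5 TPM in HCC70 non-BCSCs and at 67.8, 72.7 and 71.2 TPM in BCSCs (0.29, SE 0.078, limma adjusted p = 0.086). MRPS18B was at 16.3, 18.5 and 19.6 against 22.8, 22.7 and 21.0 TPM (0.28, SE 0.079, limma adjusted p = 0.094). The third paralog, MRPS18C, overlapped between groups with a log2 fold change of 0.02. MRPL49 was at 68.4, 80.6 and 77.5 in non-BCSCs and at 89.9, 89.3 and 89.6 TPM in BCSCs (0.25, limma adjusted p = 0.086). MRPS7 and MRPL38 were also higher in every BCSC library, by 0.18 and 0.16. MRPL38 was the only one of the 76 higher without overlap in the BCSCs of both lines, and MRPL17, at 27.4, 29.6 and 30.2 against 25.3, 25.6 and 27.2 TPM in HCC70, the only one lower without overlap in both. In Hs578T, 12.0% of all genes were higher without overlap and 17.0% lower, and in HCC70 20.9% and 10.1%. How many of all genes kept the same direction in both lines was not counted. With KIF20A sg1, where 7.3% of genes were lower without overlap, MRPL17 was among them. It was at 62.4, 60.8 and 61.96 against 52.6, 55.2 and 50.1 normalised reads (-0.23, limma adjusted p = 0.69).

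The differences between BCSCs and non-BCSCs were compared between the 2 lines member by member. Log2 fold changes were above 0 in both lines for 15 members, below 0 in both for 19, above 0 in Hs578T and below 0 in HCC70 for 32, and the reverse for 10. The interaction of fraction and cell line in limma, over 11668 genes, passed for 5 of the 76 members, 4 of them higher in Hs578T than in HCC70, where 7.11% of genes passed, so the share of members was close to that of all genes. These 4 were the small subunit genes MRPS28, MRPS35, MRPS31 and MRPS12. At an unadjusted p under 0.05 there were 20 members, but the share of all genes at that threshold was not counted. The median of the differences was 0.07 over members and -0.04 over all genes.

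**Figure D2:**
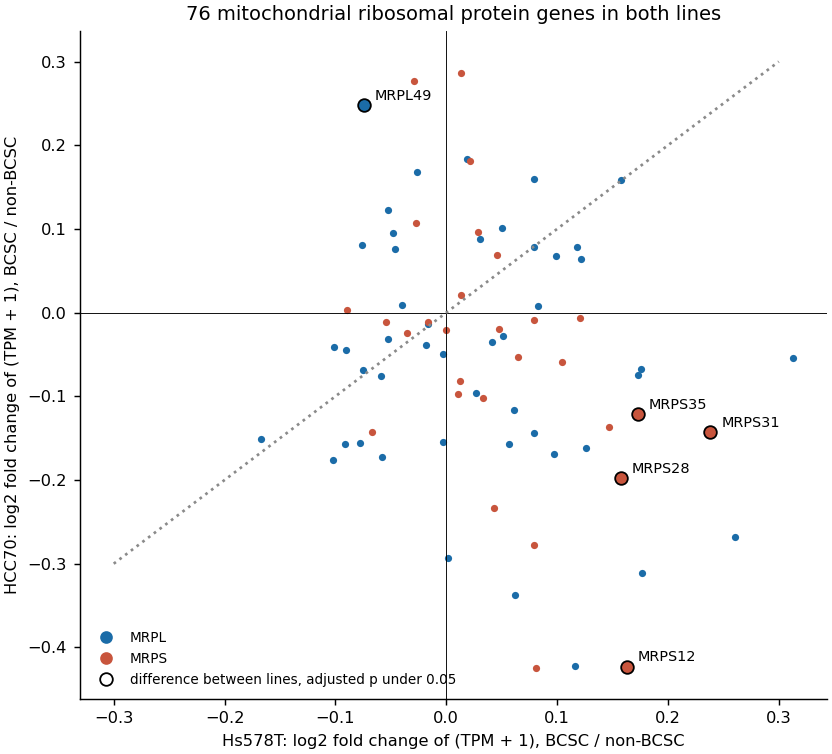
Log2 fold change of (TPM + 1) between BCSCs and non-BCSCs of Hs578T (x axis) and HCC70 (y axis) for 76 members, large subunit in blue and small subunit in red, with a dotted line where both are equal. Ringed are the 5 members whose difference between lines passed limma, of which MRPS12, MRPS28, MRPS31 and MRPS35 lie right of 0 in Hs578T and below 0 in HCC70, and MRPL49 on the opposite side.

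MRPS28 was higher in all Hs578T BCSC libraries, as given above, and lower in all HCC70 BCSC libraries, at 65.2, 64.9 and 69.2 TPM in non-BCSCs and 60.2, 58.7 and 54.5 TPM in BCSCs. The difference of its log2 fold changes was 0.36 (SE 0.072, limma adjusted p = 0.016), and its call held when any 1 of the 12 libraries was left out, while the call of MRPS35 was lost in 3 of these fits, that of MRPS31 in 6, of MRPS12 in 7 and of MRPL49 in 10. On values rescaled by the median of ratios MRPL49 did not pass either (limma adjusted p = 0.097). MRPS31 was at 34.1, 32.2 and 33.8 against 30.9, 28.03 and 31.5 TPM in HCC70, and its difference was 0.38 (SE 0.092, limma adjusted p = 0.033). MRPS35 was at 103, 100.3 and 102 against 94.4, 91.8 and 94.1 TPM there, with a difference of 0.29 (SE 0.065, limma adjusted p = 0.023). For all 3, groups did not overlap in either line, in opposite directions. The same held for the large subunit gene MRPL3 (0.06 in Hs578T and -0.12 in HCC70), whose difference did not pass (limma adjusted p = 0.19). How many of all genes had this pattern was not counted. MRPS12 had overlapping groups in Hs578T, at 36.4, 42.9 and 45.2 against 45.04, 51.5 and 43.0 TPM, and a difference of 0.59 (SE 0.15, limma adjusted p = 0.036). MRPL49 overlapped in Hs578T as well, at 69.4, 71.7 and 68.1 against 66.5, 62.0 and 70.2 TPM, with a difference of -0.32 (SE 0.088, limma adjusted p = 0.049). The number of members called varied with the library left out, as did the share of all genes called. It was 1 without Hs578T BCSC replicate 1 (2.76% of all genes) or without HCC70 BCSC replicate 1 (2.75%). It was 7 without Hs578T BCSC replicate 3 (10.5%) or without HCC70 non-BCSC replicate 2 (6.54%).

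With KIF20A sg1 in MDA-MB-231 cells, most mitochondrial ribosomal protein mRNAs lay below sgCtrl, by small amounts. Values in this table are not divided by length. Of 77 members tested (MRPL53 was listed at 0 in all 6 libraries), none passed limma, where 0% of 12852 genes did, and edgeR called none either. At an unadjusted p under 0.05, 13 members were lower and none was higher (4.72% and 2.28% of all genes). Groups did not overlap for 28 members, all lower (7.3% of genes lower and 5.73% higher). The median log2 fold change was -0.15, with 56 members below 0, against 0.00 over all genes. Cytosolic ribosomal protein genes had a median of -0.19 over 77 genes in the same libraries.

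The largest difference was in MRPL12, at 13.7, 11.3 and 4.01 normalised reads with sgCtrl and 2.95, 3.47 and 3.34 with KIF20A sg1, from 140 to 624 reads per library. Its log2 fold change was -1.19 (SE 0.33, limma adjusted p = 0.69) and did not pass, while DESeq2 on recovered reads gave -1.56 (adjusted p = 0.011) and called it as 1 of 16 genes (0.0943%). sgCtrl replicate 3 lay near the KIF20A sg1 libraries for this gene, and 701 of its 1009 exon bases are shared with an unnamed gene on the same strand. MRPL41 was at 48.9, 41.6 and 32.8 against 24.3, 30.04 and 27.8 normalised reads (-0.56, limma adjusted p = 0.69). MRPS26 was at 40.8, 48.1 and 30.8 against 26.3, 27.4 and 27.9 normalised reads (-0.52, limma adjusted p = 0.69). MRPL51 was at 55.1, 52.4 and 36.5 against 34.0, 34.5 and 31.6, and MRPL28 at 54.1, 54.0 and 37.4 against 35.2, 35.8 and 31.5 normalised reads. In each of these, sgCtrl replicate 3 was the lowest control and still above all 3 KIF20A sg1 libraries.

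That library stood apart in the other direction for most members. Relative to the mean of the 6 libraries, the median member was at 0.03, 0.05 and 0.15 (log2) in sgCtrl replicates 1 to 3 and at -0.08, -0.04 and -0.09 with KIF20A sg1, and the cytosolic ribosomal proteins were at 0.23 in sgCtrl replicate 3. The median coefficient of variation of a member was 14.4% among sgCtrl libraries and 7.49% among KIF20A sg1 libraries. Without sgCtrl replicate 3, limma called 7 members lower (1.06% of 12886 genes were), and the median log2 fold change of members was -0.10. The 7 were MRPL12 (-1.66, limma adjusted p = 0.0094), MRPL24, MRPL28, MRPL34, MRPL51, MRPS26 and MRPS34. For each of these 7, the library left out was the lowest sgCtrl library. It lay within the KIF20A sg1 values for MRPL34 (20.5 against 17.7 to 20.8 normalised reads) and MRPS34 (19.4 against 15.5 to 19.5).

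In the labelled OE libraries, mitochondrial ribosomal protein genes were among the many that differed from EV. Of 76 members tested (MRPL53 and MRPS24 had means under 1 CPM), 46 rose and 5 fell by limma, where 46.2% of 15265 genes rose and 23.4% fell. The median log2 fold change was 0.63, with 65 members above 0, against 0.37 over all genes. After rescaling by the median of ratios, which brought the median of all genes to 0.03, 33 members rose and 10 fell (33.8% and 33.0% of genes), with a median of 0.27.

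The largest rises were found in both subunits. MRPS21, a small subunit protein with a bacterial homologue, was at 23.9, 26.0 and 27.6 CPM with EV and 136, 132 and 124 CPM in the labelled OE libraries. Its log2 fold change was 2.30 (SE 0.12, limma adjusted p = 1.1e-06). MRPL55, counterpart of bacterial L31, was at 26.2, 24.9 and 24.8 against 128, 126 and 119 CPM (2.26, limma adjusted p = 8.9e-07). These groups were separated by several times their spread, although MRPS21 has 8 annotated pseudogene copies. MRPL37 was at 96.2, 113 and 88.4 against 329, 388 and 336 CPM (1.82), MRPS14 at 17.7, 19.6 and 17.6 against 75.3, 63.2 and 60.4 CPM (1.80), and MRPL40 at 21.1, 28.03 and 23.5 against 76.3, 108 and 73.3 CPM (1.77). MRPL12 was at 8.28, 12.0 and 8.53 against 28.6, 35.9 and 27.4 CPM (1.58, limma adjusted p = 0.00017). MRPL58, a peptide release factor homologue built into the large subunit, was at 26.2, 34.2 and 27.8 against 55.4, 55.4 and 56.2 CPM (0.91, limma adjusted p = 0.00053).

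Among the 5 that fell, MRPS10 stood far from the others. It was at 233, 252 and 249 CPM with EV and at 62.6, 72.6 and 72.0 CPM in the labelled OE libraries, a log2 fold change of -1.81 (SE 0.11, limma adjusted p = 2.8e-06). MRPL14 was at 114, 91.7 and 104 against 52.2, 65.7 and 61.0 CPM (-0.78, limma adjusted p = 0.0011), and MRPL34 at 59.8, 50.6 and 69.8 against 37.9, 42.2 and 42.03 CPM (-0.54, limma adjusted p = 0.011). MRPS6 was at 38.8, 31.7 and 48.6 against 22.8, 25.4 and 27.9 CPM (-0.61, limma adjusted p = 0.016, or 0.061 without labelled OE replicate 1). MRPL2 was at 9.81, 10.9 and 8.47 against 4.82, 7.71 and 6.32 CPM (-0.57, limma adjusted p = 0.041), a call that was lost with a pseudocount of 0.1 (adjusted p = 0.050), with no filter (0.059), and without EV replicate 1 (0.085), EV replicate 2 (0.11), labelled OE replicate 1 (0.13) or replicate 3 (0.090). All 5 have bacterial homologues. None of the 30 mitochondria-specific members tested fell, and 20 rose, while 26 of the 45 with a bacterial homologue rose and 5 fell. Of all genes, 46.2% rose and 23.4% fell. Whether members of different origin differed was not tested. After rescaling by the median of ratios, 8 of the 45 and 2 of the 30 were lower (33.0% of all genes). The absence of mitochondria-specific falls thus held on the deposited scale only.

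The 3 MRPS18 paralogs did not pass on the deposited scale, at log2 fold changes of 0.06 for MRPS18A, -0.28 for MRPS18B and 0.45 for MRPS18C. Rescaled by the median of ratios, MRPS18B was lower (-0.65, limma adjusted p = 0.0071), and MRPS18A was at -0.29. MRPS18C passed on the deposited scale without EV replicate 3 (0.66, limma adjusted p = 0.019). MRPS30 and MRPS36 were at 0.28 and -0.01, and MRPS30 was at -0.07 on the rescaled values. MRPS28 and MRPS12, which differed between the sorted lines, were at 0.41 (limma adjusted p = 0.11) and 0.40 (limma adjusted p = 0.032).

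**Figure D3:**
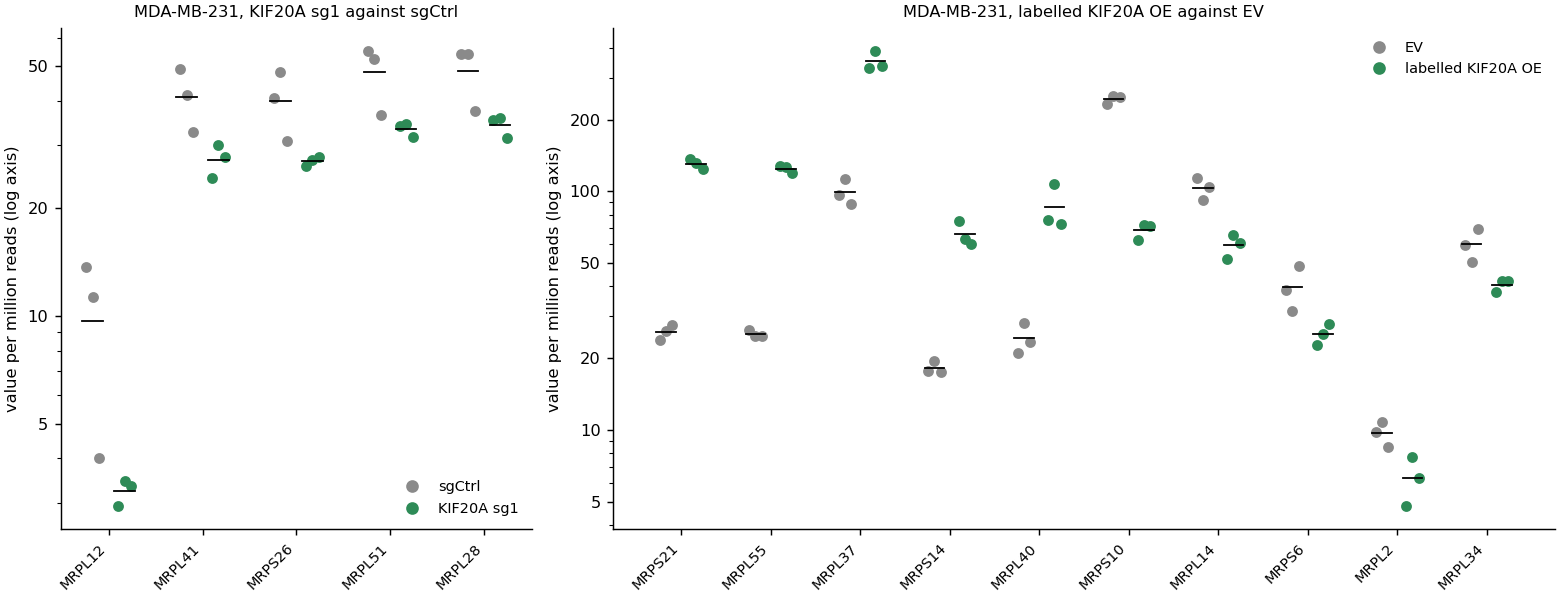
CPM or normalised reads of named members in each MDA-MB-231 library on a log axis, with sgCtrl against KIF20A sg1 on the left and EV against the labelled OE libraries on the right, control libraries in grey, the others in green, and lines for the means (n = 3). On the left sgCtrl replicate 3, the rightmost grey point, lies near the green points, and on the right the groups of all 10 genes are apart, with MRPS21 at 23.9 to 27.6 CPM against 124 to 136 and MRPS10 at 233 to 252 against 62.6 to 72.6.

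Large and small subunit members were also described apart. Median log2 fold changes were 0.03 and 0.03 in Hs578T BCSCs, -0.04 and -0.02 in HCC70 BCSCs, -0.17 and -0.10 with KIF20A sg1, and 0.63 and 0.66 in the labelled OE libraries, for MRPL and MRPS in that order. Placing MRPS30 and MRPS18A with the large subunit and leaving out MRPS36, as structures do, gave -0.14 and -0.16 with KIF20A sg1, so the order of the subunits there turned with the assignment, and 0.59 and 0.78 in the labelled OE libraries. In the labelled OE libraries, 30 of 48 large and 16 of 28 small subunit members rose, and 3 and 2 fell.

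**Figure D4:**
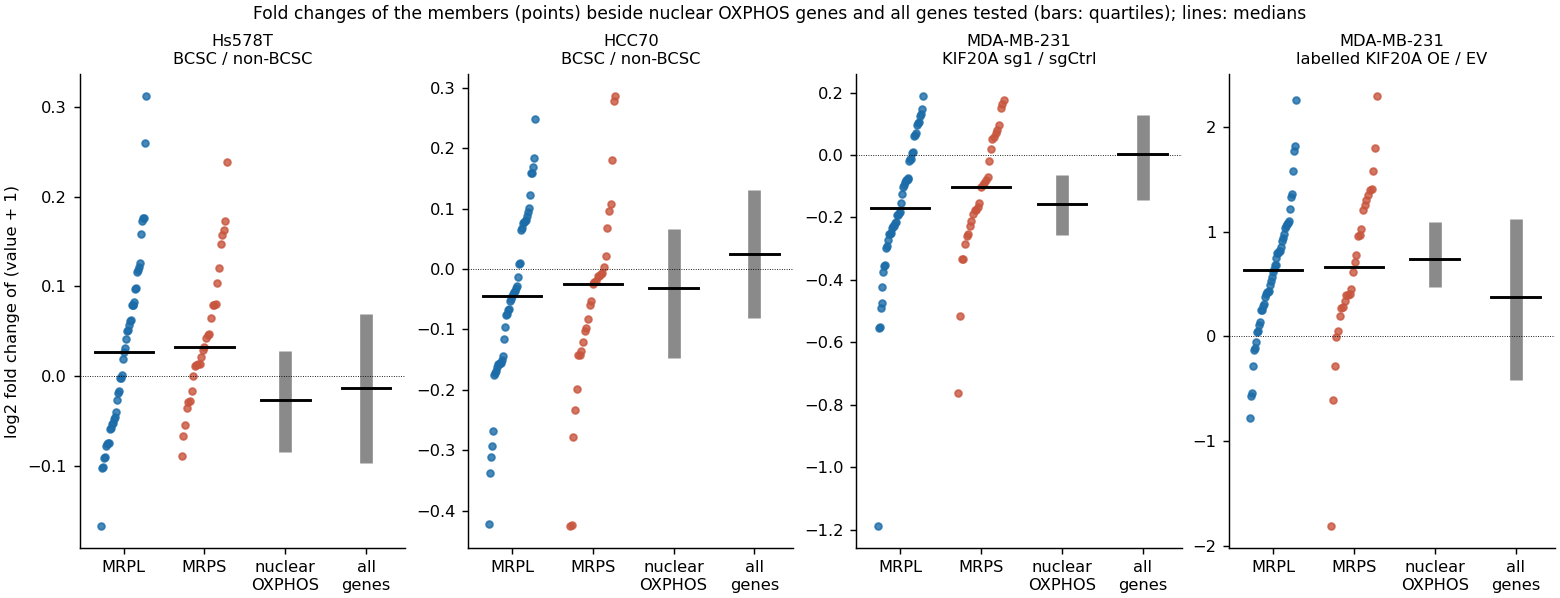
Log2 fold change of (value + 1) of each large (MRPL, blue) and small subunit member (MRPS, red) in the 4 comparisons, beside quartiles (grey bars) of nuclear OXPHOS genes and of all genes tested, with medians as black lines and separate y axes. Members sit near 0 in both sorted lines, mostly below 0 with KIF20A sg1 (median -0.15) and mostly above 0 in the labelled OE libraries (median 0.63).

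The summed values gave a closer view of the balance between subunits within a library. In Hs578T, the ratio of summed MRPL to summed MRPS TPM was 1.90, 1.90 and 1.91 in non-BCSCs and 1.89, 1.83 and 1.86 in BCSCs, lower in every BCSC library (means 1.90 ± 0.0081 and 1.86 ± 0.027, SD, n = 3). In HCC70 it was 1.65 ± 0.030 and 1.66 ± 0.031 and overlapped. With KIF20A sg1 it was 1.51 ± 0.045 against 1.59 ± 0.059 for sgCtrl, overlapping, on values not divided by length. In the labelled OE libraries it was 1.89, 1.87 and 1.89 against 1.69, 1.68 and 1.66 with EV, higher in every library. By structure these last means were 1.99 and 1.81. These ratios are descriptions without a test and are set by the most abundant members.

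In complexes I, III, IV and V, the protein products of nuclear OXPHOS genes join the mitochondrially translated subunits. These nuclear genes were described as a list of 78 drawn from complexes I to V, complex II included. In Hs578T their median log2 fold change was -0.03, with 29 of 78 above 0, and 3 complex I genes fell, NDUFA12 (-0.28, limma adjusted p = 0.019), NDUFB2 (-0.19, adjusted p = 0.033) and NDUFS5 (-0.26, adjusted p = 0.045), a smaller share than the 7.15% of all genes called. Members had a median of 0.03 there. The ratio of summed member to summed nuclear OXPHOS TPM was 0.290, 0.295 and 0.285 in Hs578T non-BCSCs and 0.307, 0.309 and 0.298 in BCSCs, without overlap. In HCC70, 2 OXPHOS genes fell, NDUFB7 of complex I (-0.61, limma adjusted p = 0.046) and ATP5F1D of complex V (-0.71, adjusted p = 0.011), where 2.83% of all genes were called. The list median was -0.03, and the ratio was 0.333 ± 0.0086 in non-BCSCs and 0.330 ± 0.0092 in BCSCs (SD, n = 3), overlapping.

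With KIF20A sg1, members and nuclear OXPHOS genes had nearly equal medians, -0.15 and -0.16, and their ratio was 0.567 ± 0.011 with sgCtrl and 0.577 ± 0.030 with KIF20A sg1 (SD, n = 3), overlapping. No OXPHOS gene passed, and 67 of 77 were below 0. The medians of complexes I, II, III, IV and V were -0.16, -0.08, -0.17, -0.18 and -0.12. The mRNAs of the 13 OXPHOS genes in mitochondrial DNA, the substrates of these ribosomes, were analysed in this table. All 13 were above 0, with a median of 0.65, and none passed. Their summed values were 24970, 11540 and 9683 normalised reads with sgCtrl and 21940, 15100 and 33640 with KIF20A sg1, which overlapped.

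In the labelled OE libraries, 61 of 75 nuclear OXPHOS genes rose and 1 fell, where 46.2% and 23.4% of all genes did, with a median of 0.74. Rescaled by the median of ratios, 41 rose and 6 fell (33.8% and 33.0% of all genes), with a median of 0.39. By complex, 27 of 34 in complex I, 3 of 4 in complex II, 9 of 9 in complex III, 9 of 11 in complex IV and 13 of 17 in complex V rose on the deposited scale. NDUFB9 of complex I had a log2 fold change of 2.02 (limma adjusted p = 5.2e-06), COX5A of complex IV 1.39 (adjusted p = 1.8e-05) and UQCR10 of complex III 1.54 (adjusted p = 6.3e-05). The ratio of members to nuclear OXPHOS genes was 0.602, 0.616 and 0.581 with EV and 0.555, 0.565 and 0.561 in the labelled OE libraries, lower in every library. Cytosolic ribosomal proteins, of which 59 of 78 rose on the deposited scale and 30 rose and 2 fell on the rescaled values, had a median of 0.59, beside 0.63 for the members.

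**Figure D5:**
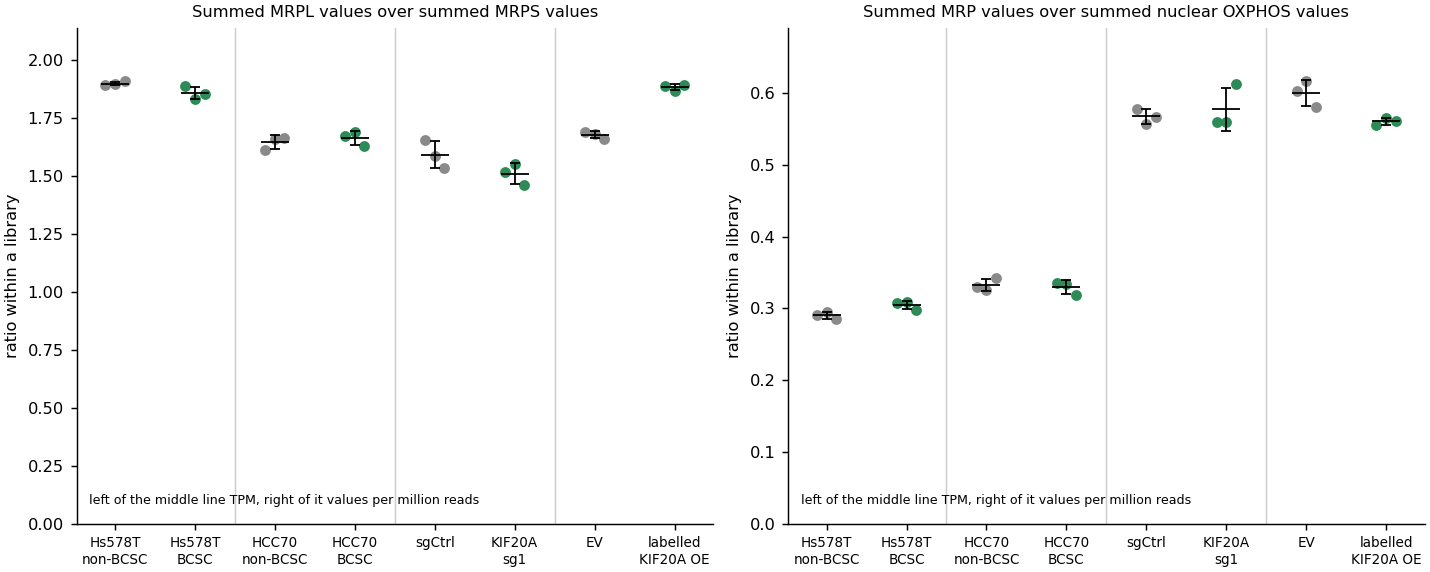
Ratio of summed MRPL to summed MRPS values (left) and of summed member to summed nuclear OXPHOS values (right) in each library, with lines for the mean and bars for SD (n = 3), control groups in grey and the others in green. TPM were used for the sorted lines and values without length correction for MDA-MB-231, so levels are not comparable between them. The large to small ratio in the labelled OE libraries (1.87 to 1.89) lies above EV (1.66 to 1.69).

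Genes that act before and around the ribosome were described from lists of mitochondrial transcription (7 genes), translation factors (17) and ribosome assembly (26). No gene of these lists passed limma in either sorted line or with KIF20A sg1. The transcription list had medians of 0.09 in Hs578T BCSCs, with 6 of 7 above 0, and -0.11 in HCC70 BCSCs, with all 7 below 0. In the labelled OE libraries, 46.2% of all genes rose and 23.4% fell on the deposited scale. Of the transcription genes, 4 of 7 rose, including the mitochondrial RNA polymerase POLRMT at 69.8, 62.9 and 57.8 against 158, 228 and 173 CPM (1.52, limma adjusted p = 5.8e-05). So did 9 of 16 translation factors, among them the elongation factor GFM1 (1.32, limma adjusted p = 6.4e-05), and 17 of 25 assembly genes, among them the helicase DDX28 (1.70, adjusted p = 4.5e-05), and none of these 3 lists had a gene that fell on that scale. On values rescaled by the median of ratios, 33.8% of all genes rose and 33.0% fell. There, 2 transcription genes rose and 0 fell, 5 translation factors rose and 2 fell, and 8 assembly genes rose and 1 fell. Of 5 ribosomal proteins with other symbols, 2 rose and 1 fell on the deposited scale, and 0 rose and 3 fell on the rescaled values. On the deposited scale DAP3 rose (0.55, limma adjusted p = 0.0015), AURKAIP1 rose (0.43, adjusted p = 0.022) and PTCD3 fell (-0.46, adjusted p = 0.010).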

How the data were processed

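RNA-Seq libraries of 24 samples were analysed from the tables the authors deposited. The paper describes its libraries as stranded and poly-A selected. The short noncoding RNAs RMRP and RPPH1 were at 48890 to 108800 and 25580 to 80530 TPM in the sorted libraries. In the MDA-MB-231 libraries they reached at most 0.803 and 0.541. Whether the sorted libraries were prepared like the others was not tested. Per the submitters' processing notes, reads were aligned to GRCh38 and HISAT2 2.0.5 and featureCounts 1.5.0-p3 were used. The annotation and the strand setting of counting are not given in the sources used here. The deposited Hs578T and HCC70 tables are named counts, but their values were not whole, summed to the same fixed total in every library and had short noncoding RNAs at the top, so they were taken as TPM. This is read from the values and not stated in the sources used here. The depletion table, named CPM by the authors, holds a signal of reads divided by 1 factor per library, with column totals of 977394 to 1028621. The overexpression table holds CPM, which the authors made from reads without a length term.

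Whole reads were recovered for 100% of the values of both MDA-MB-231 tables (tolerance 0.02), 41424338 to 51018667 per library in the depletion and 15971297 to 22182293 in the overexpression experiment, of which the members took 131225 to 181552 and 57633 to 127262. Depth was not recovered from TPM, so the counting error there is unknown.

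Samples were grouped by their labels. For each comparison, limma was run on log2(value + 1) of all genes whose mean over its 6 samples reached 1 (version 3.58.1, trend, two-sided, R 4.3.3), with Benjamini-Hochberg adjustment over all genes of the table and a threshold of 0.05, and fold changes are on that scale, which understates changes of low genes. The study names DESeq2 for its counts. The interaction of fraction and cell line was fitted over the 12 sorted samples. Lists were described by counts and medians, and ratios by values per library, without tests. Alternatives were a pseudocount of 0.1, no filter, a mean of at least 5, rescaling by the median of ratios, the replicate number as a block, leaving out each library, assignment of members by structure and, on recovered reads, edgeR 4.0.16 (quasi-likelihood, TMM) and DESeq2 1.42.0. The fit was tested on simulated data. Promoters, motifs and exon overlaps were read from RefSeq and GENCODE (GRCh38) with Python 3.11.15, pandas 2.3.3 and numpy 2.4.6.

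The members and the gene lists were chosen with earlier results of these data known. Members were named where they passed without overlap (up to 5 of the largest rises and 5 of the largest falls in a comparison, or, where fewer than 3 passed, the largest non-overlapping differences as values), for the highest and lowest levels (3 each) and for known exceptions of structure or function. MRPL54, MRPS6, MRPL9 and MRPL36 (levels between lines), MRPS16 and the members called without sgCtrl replicate 3 were named after their values were seen. Genes of other lists were named where they passed without overlap, up to 3 a list. Replicate numbers were not taken as pairs, since same-numbered samples deviated together with a correlation over 0.1 in 1 of 12 pairs (HCC70 replicate 2, r = 0.185). The labels do not say whether the numbers pair the samples.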

Additional observations from a re-analysis of the deposited data

Results flagged for a closer look

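The difference between BCSCs and non-BCSCs differed between Hs578T and HCC70 for 5 members, as tested by the interaction term of limma over 11668 genes. The log2 fold change in Hs578T minus that in HCC70 was 0.3554 for MRPS28 (0.16 and -0.20, adjusted p = 0.016), 0.2943 for MRPS35 (0.17 and -0.12, adjusted p = 0.023), 0.3809 for MRPS31 (0.24 and -0.14, adjusted p = 0.033), 0.586 for MRPS12 (0.16 and -0.42, adjusted p = 0.036) and -0.3222 for MRPL49 (-0.07 and 0.25, adjusted p = 0.049). Among the members 5 of 76 passed, where 7.11% of all genes did. When each of the 12 libraries was left out in turn, the call was lost in 0 fits for MRPS28, 3 for MRPS35, 6 for MRPS31, 7 for MRPS12 and 10 for MRPL49, and MRPL49 was also lost on values rescaled by the median of ratios (adjusted p = 0.097). In neither line alone did any of the 5 pass limma on the deposited scale with the filter at a mean of 1 TPM. MRPS12 passed in HCC70 with a mean of at least 5 TPM (adjusted p = 0.043), and MRPS28, MRPS31 and MRPS35 passed in Hs578T on the rescaled values (adjusted p = 0.026, 0.032 and 0.032). Line, table and labelled batch cannot be told apart in this contrast. Groups of 3 samples are too small for a test of outlying samples, and none was made.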

How the results depend on the processing

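Depth was known only for MDA-MB-231, and 3 libraries a group limit every test. Rescaled by the median of ratios, 4 members passed in Hs578T with a median of 0.056, the median was -0.071 in HCC70, and the labelled OE libraries had a median of 0.27 with 33 members higher and 10 lower in place of 46 and 5. By edgeR that median was 0.27 and by DESeq2 0.24, each also with 33 higher and 10 lower. With a mean of at least 5, 1 member passed in HCC70. DESeq2 called 1 member with KIF20A sg1. Counted by structure, the median of small subunit members was -0.16 with KIF20A sg1 and 0.78 in the labelled OE libraries.

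Leaving out 1 library at a time gave 0 to 7 members called with KIF20A sg1 (7 without sgCtrl replicate 3) and medians from -0.16 to -0.097, 1 to 7 members for the interaction, and 46 to 53 in the labelled OE libraries. With the replicate number as a block, 0 members passed the interaction in place of 5 (adjusted p from 0.051 for MRPS12 to 0.099 for MRPL49), 52 in place of 51 in the labelled OE libraries, where MRPL2 was lost, and 0 in the other comparisons. In the overexpression experiment 6 of 6 samples correlated best with the sample of their own number, a hint from the data. The cause of these changes was not tested. Of 878 values of named members under alternatives, 42 lost a call, 13 gained one, 6 moved by more than the spread between replicates and 0 reversed after passing. The other 817 stayed on the same side of the threshold. Among the 878, 31 past no threshold in either fit changed sign.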

Other observations

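Some members had low values in the MDA-MB-231 tables beside those of the sorted lines, which are on another scale because only the latter are corrected for length. MRPS24 was at 146 to 156 TPM in Hs578T, at 0.188 to 0.905 CPM in the overexpression experiment and at 0.961 to 1.79 normalised reads in the depletion experiment, and 606 of its 2607 exon bases are shared with the readthrough gene URGCP-MRPS24. MRPL53 was at 66.1 to 91.1 TPM in Hs578T, at 0.333 to 0.941 CPM in the overexpression experiment and at 0 in all 6 libraries of the depletion experiment, and 499 of its 685 exon bases are shared with CCDC142. MRPL38 was at 37.8 to 46.9 TPM in Hs578T and 0.762 to 1.78 normalised reads in the depletion experiment, but at 7.81 to 20.45 CPM in the overexpression experiment, and 1373 of its 3342 exon bases are shared with an unnamed gene. Members with no shared bases on the same strand had low values in the depletion experiment too, such as MRPS21, at 131 to 150 TPM in Hs578T and 10.97 to 16.17 normalised reads. Whether the shared bases bear on these values was not tested.

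The median coefficient of variation of a member among the 3 libraries of a group was 4.22% and 5.13% in Hs578T non-BCSCs and BCSCs, 6.89% and 5.44% in HCC70 non-BCSCs and BCSCs, 14.4% with sgCtrl, 7.49% with KIF20A sg1, 12.1% with EV and 11.9% in the labelled OE libraries.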
